A study of Mus musculus with 81 samples.

Results

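Among 81 arrays of mouse heart RNA, 32 were chosen by their measured level of Ucp1, the uncoupling protein of brown fat mitochondria. Arrays were ranked by Ucp1 within each diet, and the 8 highest and the 8 lowest of each diet were taken, which gave 16 Ucp1-high and 16 Ucp1-low pools and left 49 arrays in neither group. Each array held RNA of 1 strain on 1 diet, pooled evenly from about 5 males of 29 weeks that had been fasted overnight and perfused. The strains were BXD strains, recombinant inbred lines bred from the parents C57BL/6J and DBA/2J, together with those parents, with 42 pools on chow and 39 on a high fat diet. Of these strains 39 had an array on each diet.

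The Ucp1-high group on chow held BXD90, C57BL/6J, BXD56, BXD50, BXD55, BXD45, BXD98 and BXD64. The Ucp1-high group on high fat held BXD49, BXD45, BXD62, BXD95, BXD66, BXD75, BXD69 and C57BL/6J. The Ucp1-low group on chow held BXD87, BXD71, BXD65, DBA/2J, BXD62, BXD60, BXD70 and BXD75. The Ucp1-low group on high fat held BXD96, BXD71, BXD100, BXD64, BXD103, BXD73, BXD83 and BXD70. The 32 pools came from 25 strains, 7 of which entered on both diets. All pools are heart RNA of fasted males, and the level of atrial markers differed widely between them, as given below. With pooled animals and 1 array per strain and diet, differences between animals of a strain are not seen, and strain and pool cannot be told apart within a diet. What the high fat diet contained is not stated, and 1 protocol text, which names chow, is attached to every sample, so diet was read from the treatment label.

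Brown adipocytes hold many small lipid droplets and many mitochondria, and Ucp1 lets protons back across the inner membrane so that fuel is burned for heat. White adipocytes store fat in a large droplet and secrete hormones such as leptin and resistin. In mice, fat lies on the heart surface, in the groove between atria and ventricles, and around the great vessels, where much of it is brown-like, so a dissected heart can carry more or less of it, as it can carry more or less atrium and vessel. In bulk RNA of this kind, fewer cells of a type and less RNA per cell cannot be told apart.

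Values are in the expression units that the authors deposited. These have a mean of 8 and an SD of 2 on every array and are called rescaled units here. The scale is log-like, but its base is not stated, so every difference below is in these units and is not a fold change.

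The ranking gene separated the pools by its construction, so its values are a description with no test. Ucp1 in the Ucp1-high chow pools was 8.094 at the lowest, 8.898 at the median and 11.117 at the highest, against 6.79, 6.884 and 7.028 in the Ucp1-low chow pools. Ucp1 in the Ucp1-high high fat pools was 8.932, 9.703 and 10.113 at the lowest, the median and the highest, against 6.85, 7.001 and 7.142 in the Ucp1-low high fat pools. The high end was spread widely while the low end was narrow. The last chow pool taken as high was BXD64 at 8.094 and the next pool was BXD99 at 7.756, while the last taken as low was BXD87 at 7.028, next to BXD48 at 7.049. On high fat the last high pool was C57BL/6J at 8.932, next to BXD50 at 8.654, and the last low pool was BXD96 at 7.142, next to BXD44 at 7.16. The low cut therefore fell inside a dense run of pools, and the high cut fell within a steep slope.

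**Figure D1:**
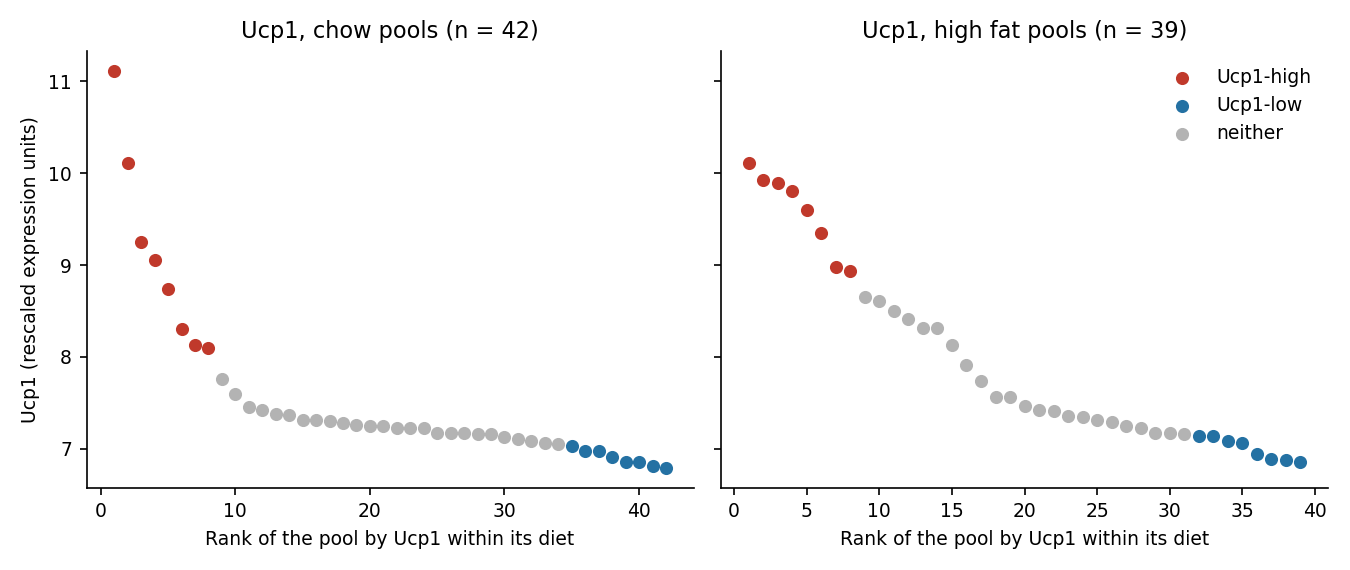
Ucp1 in rescaled expression units (vertical axis) against the rank of each pool within its diet (horizontal axis), chow on the left and high fat on the right, 1 point per pool. Red points are the Ucp1-high pools, blue the Ucp1-low pools and grey the 49 pools in neither group. On chow the first 8 ranks run from 11.117 to 8.094 and the rest form a flat tail, and on high fat the slope is longer.

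The other marker named for brown-fat-rich pools is Cidea, a lipid droplet protein of brown adipocytes, which the ranking did not use. Cidea in the Ucp1-high pools was 9.724 at the lowest, 10.08 at the median and 10.31 at the highest, against 9.42, 9.906 and 10.35 in the Ucp1-low pools, and the groups overlapped. The difference was 0.138 ± 0.0656 units (SE, 95% interval 0.00395 to 0.272), with a limma adjusted p of 0.875. Cidea thus lay above the median gene level of 8.18 in the Ucp1-low pools too, and which cells its RNA came from was not tested. Because Cidea did not pass and none of the other brown adipocyte genes did, the pools are called here by the rule, Ucp1-high and Ucp1-low, and not brown-fat-rich.

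The comparison of all genes asked what else differed between hearts with much and little Ucp1 transcript, to describe the fat around the heart. It was fitted with limma with diet in the model and Benjamini-Hochberg adjustment over 22179 genes, Ucp1 left out. At an adjusted p under 0.05, 3 genes were higher in the Ucp1-high pools and 0 were lower, 0.0135% of the genes tested. They were Plin1, which coats the lipid droplets of adipocytes, Cidec, which joins small droplets into larger ones, and Prkar2b, a regulatory subunit of protein kinase A that is abundant in adipose tissue. At an unadjusted p under 0.05, 1251 genes passed (5.64%), 618 of them higher (2.79%), while 47.9% of all differences were above 0. No gene other than Ucp1 had groups that did not overlap (0.0% of 22179).

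The promoters of Ucp1 and of these 3 genes are shown because the 4 transcripts varied together across pools. Each runs from 250 bases before to 50 bases after the annotated start, from RefSeq on GRCm38.p6. Capitals mark AGGTCA, the half-site bound by many nuclear receptors, searched on both strands.
Ucp1, chr8:83290098-83290397, plus strand: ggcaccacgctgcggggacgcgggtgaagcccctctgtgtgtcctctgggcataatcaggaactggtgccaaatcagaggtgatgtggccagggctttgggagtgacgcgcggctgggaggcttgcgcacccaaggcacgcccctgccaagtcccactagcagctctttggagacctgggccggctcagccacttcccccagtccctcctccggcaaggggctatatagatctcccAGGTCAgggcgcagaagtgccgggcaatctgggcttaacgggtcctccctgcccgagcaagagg
Plin1, chr7:79732727-79733026, minus strand: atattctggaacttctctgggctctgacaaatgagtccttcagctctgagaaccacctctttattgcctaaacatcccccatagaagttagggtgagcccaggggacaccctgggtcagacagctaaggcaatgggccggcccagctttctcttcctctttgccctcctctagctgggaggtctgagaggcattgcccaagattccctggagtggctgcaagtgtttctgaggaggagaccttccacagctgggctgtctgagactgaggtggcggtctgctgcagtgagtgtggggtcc
Cidec, chr6:113435711-113436010, minus strand: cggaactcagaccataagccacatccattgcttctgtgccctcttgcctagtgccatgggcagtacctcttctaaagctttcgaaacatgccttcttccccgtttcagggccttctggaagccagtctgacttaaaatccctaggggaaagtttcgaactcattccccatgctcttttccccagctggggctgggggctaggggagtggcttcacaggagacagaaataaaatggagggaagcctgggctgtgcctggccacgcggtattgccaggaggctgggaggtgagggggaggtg
Prkar2b, chr12:32061228-32061527, minus strand: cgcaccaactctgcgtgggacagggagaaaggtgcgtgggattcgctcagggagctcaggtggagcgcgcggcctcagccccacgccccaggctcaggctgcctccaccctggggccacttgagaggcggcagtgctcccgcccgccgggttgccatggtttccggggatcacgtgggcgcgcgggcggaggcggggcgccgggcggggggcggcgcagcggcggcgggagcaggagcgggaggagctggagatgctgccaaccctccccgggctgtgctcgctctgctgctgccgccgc
The half-site was found 1 time, in the Ucp1 window, beginning at position -14 when the annotated start is counted as 0. It stands in 16.3% of the 32851 promoter windows of the same length. The longer AGGTCANAGGTCA, a pair of half-sites with 1 base between, was in none of these windows and in 0.0396% of all. CCAAT was in none of the 4 either, against 37.4% of all windows. Cidec and Prkar2b have 2 annotated starts each, and the windows of the second starts held none of the 3 motifs. No match says only that these letters are absent from the window.

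Plin1 showed the clearest separation. In the Ucp1-high pools Plin1 was 8.199 at the lowest, 8.758 at the median and 9.964 at the highest, against 7.374, 8.017 and 8.378 in the Ucp1-low pools. Of the 16 Ucp1-high pools, 15 lay above every Ucp1-low pool, BXD69 on high fat being the exception. On chow alone the groups did not overlap, but how many of all genes did the same there was not counted. Plin1 did not pass in limma within chow. The difference was 0.858 ± 0.118 units (SE, limma adjusted p = 0.00046, n = 16 each), with means of 8.81 ± 0.39 in Ucp1-high and 7.95 ± 0.308 in Ucp1-low pools (SD).

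Cidec in the Ucp1-high pools was 8.296, 8.934 and 9.812 at the lowest, the median and the highest, against 7.091, 8.037 and 8.973 in the Ucp1-low pools. The groups overlapped: 7 of the 16 Ucp1-high pools lay above every Ucp1-low pool, of which BXD100 on high fat and BXD87 on chow were the highest. The difference was 0.957 ± 0.169 units (SE, limma adjusted p = 0.0174). Without the parent strains it was 0.879 and no longer passed (adjusted p = 0.114).

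Prkar2b in the Ucp1-high pools was 7.399, 8.253 and 9.242 at the lowest, the median and the highest, against 6.929, 7.325 and 7.853 in the Ucp1-low pools. Of the Ucp1-high pools 12 lay above every Ucp1-low pool, and the lowest of the 16 was BXD50 on chow. BXD90 and C57BL/6J on chow, the pools with the most Ucp1 on that diet, were also the highest for Prkar2b, at 9.242 and 9.216. The difference was 0.854 ± 0.14 units (SE, limma adjusted p = 0.00735). With the 5 highest and 5 lowest pools of each diet it was 1.03 with an adjusted p of 0.109.

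**Figure D2:**
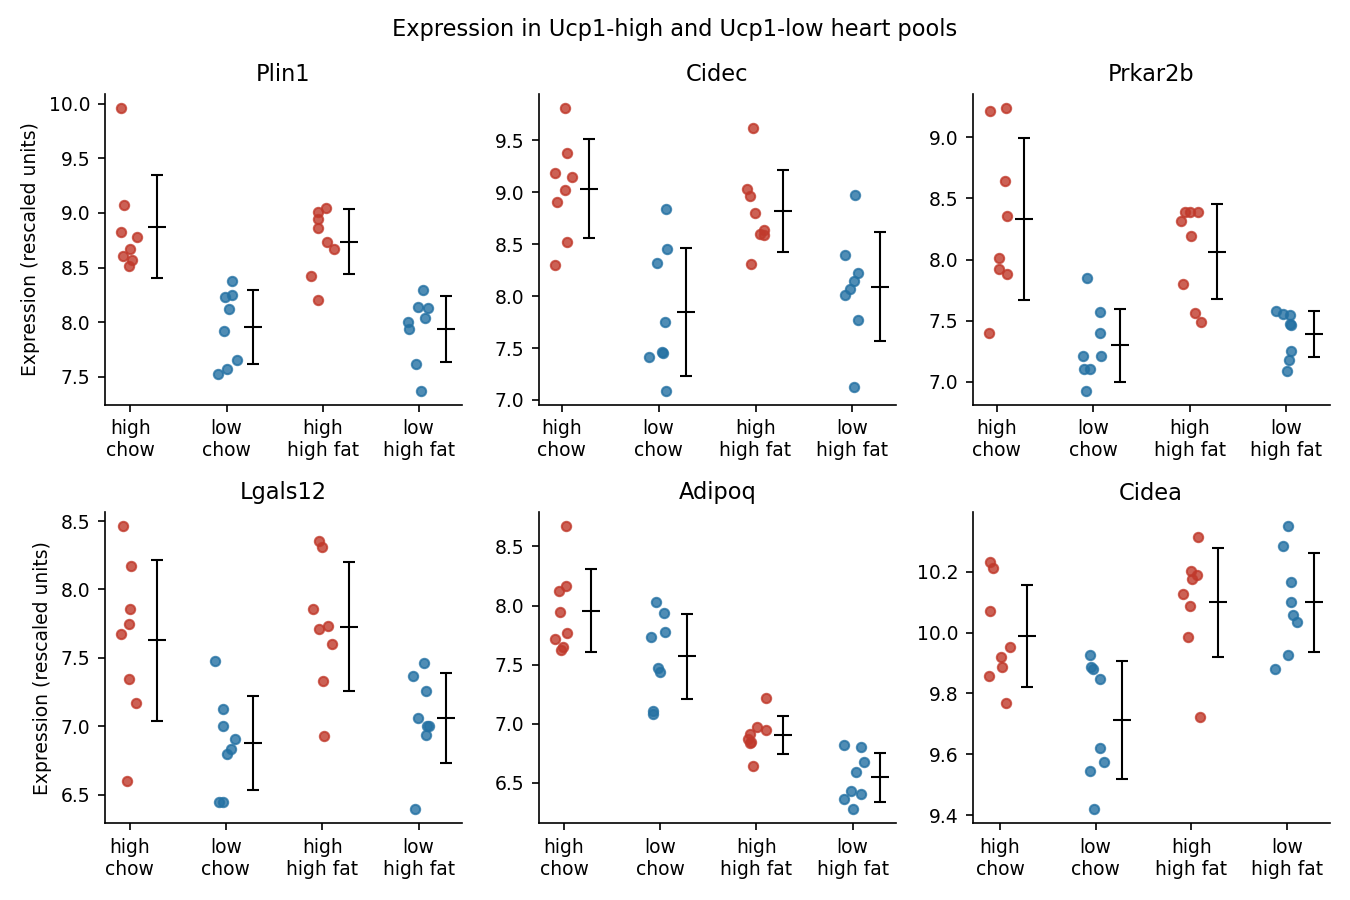
Expression in rescaled units of 6 genes in the 8 Ucp1-high (red) and 8 Ucp1-low (blue) pools of each diet, 1 point per pool, with the mean and SD beside them in black. With both diets fitted together Plin1, Cidec and Prkar2b passed the test and Lgals12, Adipoq and Cidea did not, and within a diet none of the 6 passed.

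For these genes the mean of the pools in neither group lay near that of the Ucp1-low pools. Over the 49 pools in neither group Plin1 averaged 7.96 ± 0.4, Cidec 7.93 ± 0.47 and Prkar2b 7.39 ± 0.363 units (SD), beside 7.95, 7.97 and 7.35 in the Ucp1-low pools. In those 49 pools BXD69 on chow was the highest for all 3 genes, at 9.055 for Plin1, 9.446 for Cidec and 8.514 for Prkar2b, although its Ucp1 was 7.592.

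The 49 pools in neither group played no part in the comparison and hold the same measurements. With Ucp1 as a continuous term and diet in the model, a fit added after the results were seen, limma called 3 genes there (0.0135%), and they were the same genes. The slope per unit of Ucp1 was 0.772 ± 0.139 for Cidec (SE, adjusted p = 0.0217), 0.609 ± 0.117 for Plin1 (adjusted p = 0.0259) and 0.572 ± 0.11 for Prkar2b (adjusted p = 0.0259). With the mean of the atrial markers as a further term 0 genes passed, at 823 with an unadjusted p under 0.05, and the slopes were 0.572, 0.465 and 0.54 (adjusted p = 0.9996 for each).

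Within each diet the differences had the same sign but no gene passed. Limma called 0 of 22179 genes on chow (0.0%, with 1341 or 6.05% at an unadjusted p under 0.05) and 0 on high fat (0.0%, with 1303 or 5.87% unadjusted). Plin1 differed by 0.919 ± 0.169 units on chow (SE, adjusted p = 0.0946) and by 0.797 ± 0.169 on high fat (adjusted p = 0.471). Cidec differed by 1.19 ± 0.236 on chow (adjusted p = 0.124) and by 0.727 ± 0.236 on high fat (adjusted p = 0.819). Prkar2b differed by 1.03 ± 0.197 on chow (adjusted p = 0.0946) and by 0.674 ± 0.197 on high fat (adjusted p = 0.806). The difference between the diets in this contrast was tested as an interaction, which 0 genes passed (0.0%, with 1389 or 6.26% unadjusted). For Plin1 the high fat contrast minus the chow contrast was -0.12 ± 0.239 units (SE, adjusted p = 0.96).

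Of the list of brown adipocyte genes, 21 besides Ucp1 were measured, and 0 passed in either direction in limma, 4 having an unadjusted p under 0.05, all higher, beside 5.64% of all genes and 2.79% higher. Of the 21 differences 15 were above 0, beside 47.9% of all genes, and their median was 0.03 units, beside -0.0034 over all genes. Letmd1, a mitochondrial protein that mouse brown fat needs for heat production, was 10.05 at the lowest, 10.33 at the median and 10.54 at the highest in the Ucp1-high pools, against 9.963, 10.17 and 10.33 in the Ucp1-low pools. Its difference was 0.167 ± 0.0438 units (SE, limma adjusted p = 0.415). Dio2, which turns thyroid hormone into its active form, differed by 0.307 units (adjusted p = 0.771), and Otop1, a proton channel found in brown fat, by 0.238 units (adjusted p = 0.763).

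The transcription factors and enzymes used to tell brown from white fat gave no call. Zic1 and Lhx8, developmental regulators expressed in classical brown fat, differed by 0.033 and -0.064 units. Elovl3, which lengthens fatty acids in cold-exposed brown fat, differed by 0.025 units, Prdm16, a regulator of brown adipocyte identity, by -0.069 units, and Ebf2, a factor that marks brown precursors, by 0.064 units. Their adjusted p values in limma lay between 0.931 and 0.998.

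Of the list of general adipocyte genes, 27 were measured, and 2 of them, Plin1 and Cidec, were higher while 0 were lower. The median difference of the list was 0.0866 units, and 11 members had an unadjusted p under 0.05, all higher. Over all genes 0.0135% passed, and 5.64% had an unadjusted p under 0.05 in limma, with 2.79% higher. Of all differences 47.9% were above 0. These shares stand beside the list counts of the comparison below. Lgals12, a galectin that sits on adipocyte lipid droplets, was 6.602 at the lowest, 7.722 at the median and 8.463 at the highest in Ucp1-high pools, against 6.394, 6.998 and 7.477 in Ucp1-low pools. Its difference of 0.71 ± 0.145 units (SE) did not pass in limma (adjusted p = 0.123). Pck1, which supplies glycerol for storing fat, differed by 0.759 units (adjusted p = 0.233), and Adipoq, the hormone adiponectin, by 0.373 units (adjusted p = 0.366). Without the Ucp1-low BXD62 pool on chow, Pck1 differed by 0.87 units and passed (limma adjusted p = 0.0124). That pool was also the highest of the Ucp1-low pools for the liver markers Cyp2e1, Apoa2, Ambp and Fgb, at 12.87, 11.31, 9.777 and 9.442 units, and Pck1 is also abundant in liver. The part of liver RNA in the result was not tested.

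Car3, a carbonic anhydrase abundant in adipocytes and in muscle, varied widely. It was 10.42 at the lowest, 11.91 at the median and 13.58 at the highest in Ucp1-high pools, against 8.301, 10.82 and 12.53 in Ucp1-low pools. The difference was 1.42 ± 0.381 units (SE, limma adjusted p = 0.467). Several adipocyte genes that heart muscle or its capillaries also express differed little: Fabp4, a fatty acid carrier, by 0.0093 units, Cd36, a fatty acid transporter, by -0.016 units, and Lpl, lipoprotein lipase, by -0.035 units. Pparg, the main regulator of adipocyte formation, differed by 0.109 units and did not pass (adjusted p = 0.897).

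Of 14 white adipocyte enriched genes 0 passed in limma, at 3 with an unadjusted p under 0.05, 2 of them higher. The median difference of the list was 0.044 units. Retn, the hormone resistin, differed by 0.466 ± 0.143 units (SE, adjusted p = 0.653). Lep, the hormone leptin, differed by 0.177 units (adjusted p = 0.926), and Hoxc8, a regulator of position along the body, by -0.14 units (adjusted p = 0.875).

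Among pathways of lipid handling, 14 genes of fatty acid synthesis were measured and 0 passed, at 4 unadjusted. Scd1, a desaturase, differed by 0.776 units and Fasn, the fatty acid synthase, by 0.446 units (adjusted p = 0.653 for each in limma). Of 15 genes of triglyceride synthesis and lipolysis 1 passed, which was Plin1, and the median of the list was 0.021 units. Of 12 genes of adrenergic and cyclic AMP signalling 1 passed, which was Prkar2b, while Pde3b, a phosphodiesterase of adipocytes and heart, differed by 0.236 units (adjusted p = 0.887). None of the 17 genes of fatty acid oxidation, the 23 of the respiratory chain and the 12 oxidative genes shared by brown fat and heart passed, with 0, 4 and 0 of them at an unadjusted p under 0.05. Their median differences were -0.038, -0.05 and -0.047 units, and 2 of 17, 1 of 23 and 2 of 12 differences were above 0, beside 47.9% of all genes. Of the 4 respiratory chain genes with an unadjusted p under 0.05, 3 were lower.

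**Figure D3:**
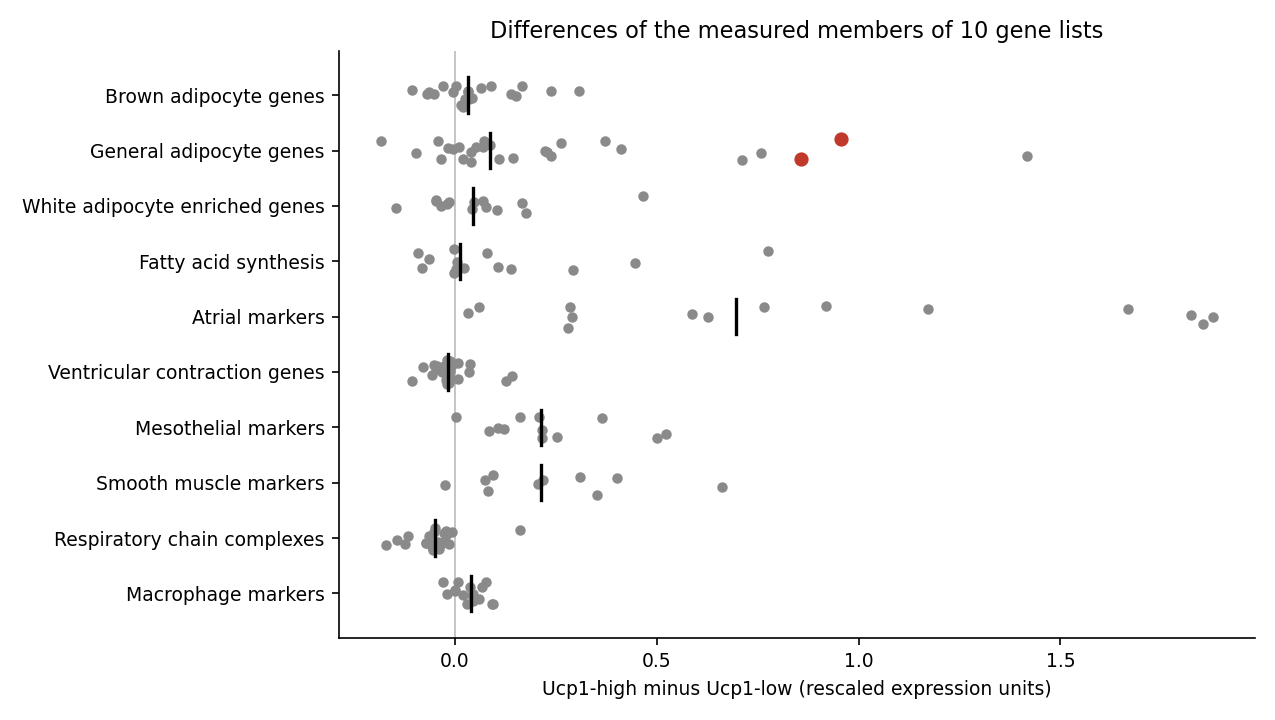
Difference between Ucp1-high and Ucp1-low pools in rescaled units for the measured members of 10 gene lists, 1 point per gene, with the list median as a black bar. Red points passed an adjusted p under 0.05 in limma, which were Plin1 and Cidec, and Ucp1 is left out. The atrial markers have the largest median of the 10 lists, 0.696 units, and the median of the brown adipocyte genes is 0.03 units with members up to 0.307.

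Of the markers of other cell types and parts of the heart, the atrial, mesothelial and smooth muscle lists had the highest median differences, and no member of them passed. Of the 14 atrial markers measured 0 passed in limma, but 12 had an unadjusted p under 0.05, beside 5.64% of all genes. All 14 differences were above 0, beside 47.9% of all genes, and their median was 0.696 units. The mean of the atrial markers ranged from 10.51 to 11.99 units in the Ucp1-high pools, against 8.89 to 12.18 in the Ucp1-low pools. The lowest value of any atrial marker in any pool was 5.828, near the median level of the background control probe sets, 5.82. Mybphl, a myosin-binding protein of the atria, averaged 11.5 ± 0.582 in Ucp1-high and 9.83 ± 1.82 in Ucp1-low pools (SD), a difference of 1.67 units (adjusted p = 0.467). Nr2f2, a factor that sets atrial identity, differed by 0.285 units (adjusted p = 0.195). In 20 of the 81 pools the atrial mean lay below that of every Ucp1-high pool, and 6 of these were Ucp1-low and 14 in neither group. The highest Ucp1 in those 20 pools was 7.425. The other 10 Ucp1-low pools had an atrial mean above that of the lowest Ucp1-high pool. The median of the atrial mean was 11.46 in the Ucp1-high and 10.6 in the Ucp1-low pools.

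In the comparison of the groups the calls were lost with the atrial markers in the model. With the atrial mean as a covariate 0 genes passed (876 unadjusted), and the differences were 0.618 for Plin1 (adjusted p = 0.199), 0.722 for Prkar2b and 0.607 for Cidec (adjusted p = 1 for both). Without the 6 Ucp1-low pools of low atrial mean, an alternative added after the data were seen, 0 genes passed (939 unadjusted), with differences of 0.754 for Plin1 (adjusted p = 0.0973), 0.823 for Prkar2b (adjusted p = 0.516) and 0.794 for Cidec (adjusted p = 0.996). Over all 81 pools with Ucp1 as a continuous term, the 3 genes passed also with the atrial mean in the model.

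Mesothelial markers, from the covering of the heart, also lay higher, with all 12 differences above 0, a median of 0.213 units, 0 passing and 6 at an unadjusted p under 0.05. Their mean ranged from 8.24 to 8.83 units in Ucp1-high pools, against 7.88 to 8.87 in Ucp1-low pools. Upk3b, a membrane protein of mesothelium, differed by 0.523 units (limma adjusted p = 0.616). Of 10 smooth muscle markers 9 differences were above 0, with a median of 0.212 units and 0 passing, at 4 unadjusted. Their mean ranged from 9.77 to 10.45 units in Ucp1-high pools, against 9.5 to 10.31 in Ucp1-low pools, and Cnn1, calponin of smooth muscle, differed by 0.662 units (adjusted p = 0.366). The part of mesothelial and smooth muscle RNA in the result was not tested.

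Genes of ventricular muscle lay near 0. Of 24 ventricular contraction genes 0 passed in limma, at 1 unadjusted, and their median difference was -0.018 units, with list means of 14.03 to 14.29 in Ucp1-high and 14.05 to 14.39 in Ucp1-low pools. Of 12 endothelial, 6 lymphatic, 11 fibroblast and 12 cartilage and valve markers 0 passed in limma, with 1, 0, 0 and 3 unadjusted, and their medians were -0.0023, -0.0015, 0.064 and 0.061 units. Of 16 macrophage markers 0 passed and 0 had an unadjusted p under 0.05, with a median of 0.04 units. For 8 liver markers the median was -0.23 units with 0 passing and 0 unadjusted, and their mean ranged from 8.29 to 9.4 in Ucp1-high and 7.7 to 11.17 in Ucp1-low pools. For 8 lung and airway markers the median was -0.00084 units with 0 passing and 0 unadjusted. Among them Scgb1a1 was 11.17 units in the Ucp1-high BXD45 pool on high fat. It was at most 6.635 in the Ucp1-low pools and 6.603 in the 49 pools in neither group. The part of airway RNA in the result was not tested. The spike-in, bacterial and background control probe sets gave 0 calls among 92, 75 and 23.

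Over all 81 pools, with Ucp1 as a continuous term and diet in the model, limma called 94 genes as higher with more Ucp1 (0.424%) and 5 as lower (0.0225%). These 81 include the 32 pools of the comparison. Of the 27 general adipocyte genes 9 passed, all higher: Plin1, Cidec, Lgals12, Adipoq, Pck1, Car3, Cebpa, a regulator of adipocyte formation, Acvr1c, a receptor of the activin family, and Cdo1, which breaks down cysteine. Of the brown adipocyte genes Letmd1 and Otop1 passed and 19 did not, and of the white adipocyte enriched genes Retn passed. Among the other lists 7 of 14 atrial, 4 of 12 mesothelial, 3 of 10 smooth muscle and 3 of 14 fatty acid synthesis genes passed, all higher. So did 1 of 12 cartilage and valve, 1 of 5 Schwann cell and 1 of 5 thyroid and parathyroid markers, each higher. With the atrial mean in the model, added after the data were seen, 8 genes passed (0.0361%). They were Plin1, Prkar2b, Lgals12, Cidec, Letmd1, Adipoq, Pck1 and Tmem45b, a membrane protein outside the lists and named after its value was seen.

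Genes most like Ucp1 were ranked by Pearson's r over the 81 pools after centring within diet. These r values describe the same arrays as the fits above and share their normalization. The highest were Plin1 at 0.781, Prkar2b at 0.772, Lgals12 at 0.722, Cidec at 0.711, Adipoq at 0.601 and Pck1 at 0.592. They were followed by Car3 at 0.545, Letmd1 at 0.545, Rgs7, a regulator of G protein signalling, at 0.545, Npnt, a matrix protein, at 0.544 and Fasn at 0.537. Msln, mesothelin of the heart's covering, had 0.533, Retn 0.528, Itga8, an integrin subunit of smooth muscle and fibroblasts, 0.522 and Otop1 0.52. For Plin1 the r was 0.797 in the 42 chow pools and 0.779 in the 39 high fat pools. Rgs7 differed between the groups by 0.563 units, Npnt by 0.365 and Itga8 by 0.578, none of which passed (limma adjusted p = 0.185, 0.653 and 0.616).

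In the 49 pools in neither group, 11 relations of Ucp1 with adipose and heart genes were tested by two-sided permutation within diet with 100000 resamples, and 3 passed by r after adjustment over the 11. Plin1 gave r = 0.594 (p = 1e-05, the smallest the permutations can give, adjusted 0.00011) and rho = 0.525 (adjusted 0.0011), with r = 0.552 in 26 chow and 0.708 in 23 high fat pools. Adipoq gave r = 0.503 (adjusted p = 0.00011) and rho = 0.507 (adjusted 0.0011), with r = 0.448 on chow and 0.776 on high fat. Msln gave r = 0.447 (adjusted p = 0.00821) and rho = 0.446 (adjusted 0.00488), with r = 0.351 on chow and 0.526 on high fat, and with quantile normalization its rho did not pass (adjusted permutation p = 0.0534). Without the 2 pools farthest from the median Ucp1, which were BXD50 and BXD90 on high fat, r was 0.6 for Plin1, 0.459 for Adipoq and 0.504 for Msln.

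The brown fat marker Cidea gave no relation that passed in these 49 pools, with r = -0.099 (permutation p = 0.533, adjusted 0.733) and rho = 0.022. Nppa, the atrial natriuretic peptide, gave r = 0.337 with an adjusted permutation p of 0.0864 and rho = 0.342 with an adjusted p of 0.03, which was 0.0534 with quantile normalization. The r was 0.124 for Elovl3, 0.036 for Zic1, -0.059 for Fabp4, 0.174 for Lep, -0.21 for Myh6, the main myosin of mouse heart muscle, and -0.053 for Tnni3, cardiac troponin I. Their adjusted permutation p values lay between 0.297 and 0.789.

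**Figure D4:**
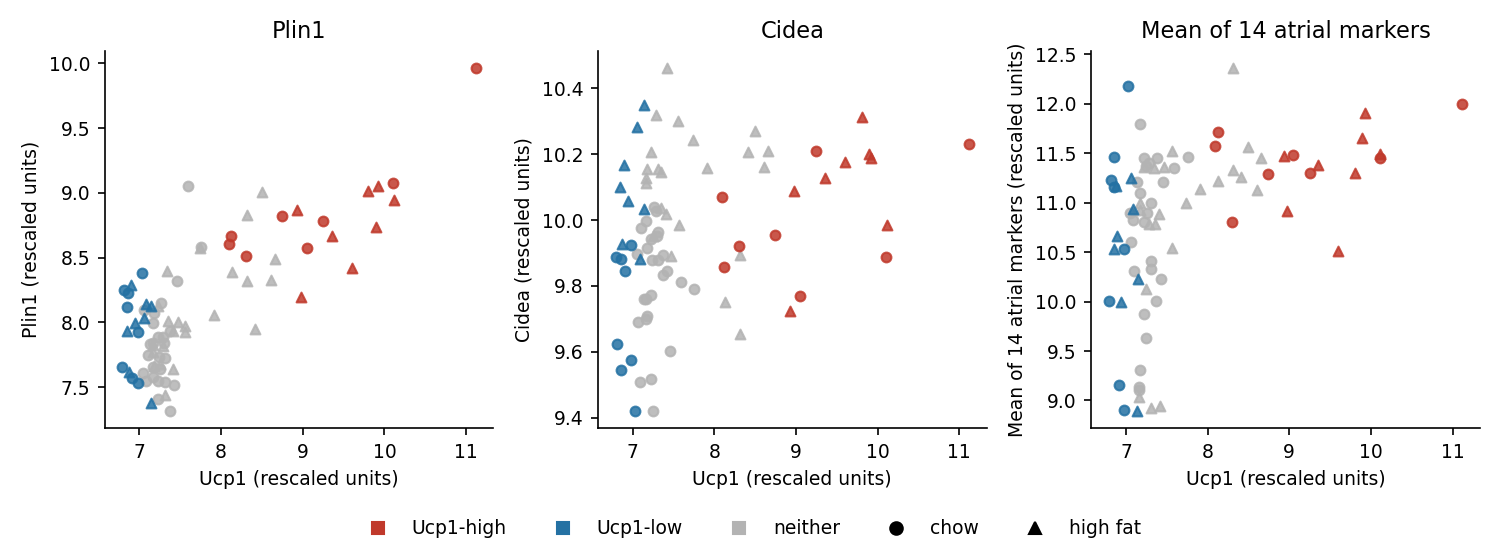
Plin1, Cidea and the mean of 14 atrial markers (vertical axes, rescaled units) against Ucp1 (horizontal axes, rescaled units) in all 81 pools, with red for Ucp1-high, blue for Ucp1-low and grey for neither group, circles for chow and triangles for high fat. Plin1 climbs with Ucp1, Cidea is spread at every level of Ucp1, and pools with an atrial mean below 10.51 all have a Ucp1 of at most 7.425.

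Whether the Ucp1 level went with the strain was asked with the 39 strains that had both diets. Ucp1 on chow ranged from 6.79 to 11.12 and on high fat from 6.85 to 10.11, and 23 strains were higher on high fat. The medians were 7.242 and 7.468, so many strains lay close to the low end, where small differences set rank and group. This limits what the correlation and the comparisons across diets can show. The level on high fat against that on chow gave r = 0.163 (permutation p = 0.331) and rho = 0.195 (permutation p = 0.234, two-sided, 100000 resamples). Without BXD90 and C57BL/6J, the strains farthest from the chow median, r was 0.026. BXD45 and C57BL/6J were Ucp1-high on both diets, and BXD70 and BXD71 were Ucp1-low on both. BXD64 was Ucp1-high on chow and Ucp1-low on high fat, while BXD62 and BXD75 were Ucp1-low on chow and Ucp1-high on high fat. Of the 8 strains that were Ucp1-high on chow, 5 lay in neither group on high fat.

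**Figure D5:**
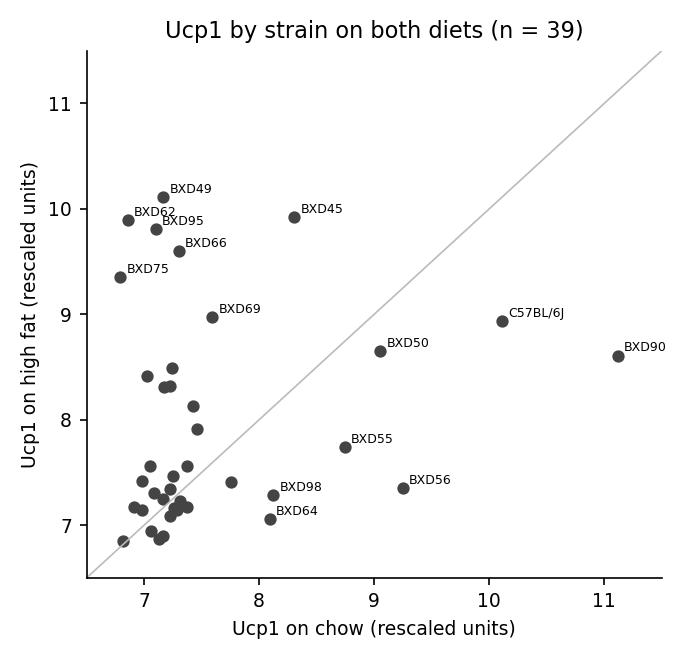
Ucp1 on high fat (vertical axis) against Ucp1 on chow (horizontal axis) in rescaled units, 1 point per strain for the 39 strains with both diets, with the line of equal values in grey and the names of strains high on either diet. Most strains that are high on a diet are not high on the other, and r is 0.163.

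The strains ranked on a diet were then compared on the other diet, whose arrays the ranking had not used. In the high fat pools of strains ranked on chow, Ucp1 was 7.057, 8.173 and 9.924 at the lowest, the median and the highest in 8 strains that had been high, against 6.85, 7.416 and 9.894 in 7 that had been low. The difference was 0.16 ± 0.484 units (SE, limma adjusted p = 0.969), and 0 genes passed (0.0%, with 1533 or 6.91% of 22180 unadjusted). In the chow pools of strains ranked on high fat, Ucp1 was 6.79, 7.234 and 10.11 in 8 strains that had been high, against 6.812, 7.147 and 8.094 in 8 that had been low. The difference was 0.434 ± 0.358 units (SE, limma adjusted p = 0.999), and again 0 genes passed (0.0%, with 1011 or 4.56% unadjusted). Plin1 differed by 0.335 and 0.355 units, Cidec by 0.451 and 0.409 and Prkar2b by 0.283 and 0.271 in these fits, with adjusted p values from 0.759 to 0.999.

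The diets were compared for the same genes. In the 39 strains with both diets, with strain in the model, limma called 45.0% of 22180 genes between high fat and chow. The labels give no batch, so a difference in array processing between the diets was not tested. It could not be told apart from diet in the values below. Adipoq averaged 6.67 ± 0.23 units on high fat and 7.52 ± 0.384 on chow (SD), a difference of -0.85 ± 0.058 (SE, adjusted p = 1.63e-15), and it was lower on high fat in all 39 strains. Cidea averaged 10.1 ± 0.176 on high fat and 9.83 ± 0.188 on chow, a difference of 0.276 ± 0.0344 (adjusted p = 1.38e-08), and it was higher in 34 strains. Ucp1 differed by 0.367 ± 0.186 units (adjusted p = 0.105), Plin1 by 0.117 ± 0.101 (adjusted p = 0.356), Cidec by 0.0871 ± 0.125 (adjusted p = 0.597) and Prkar2b by 0.0533 ± 0.094 (adjusted p = 0.672), none of which passed.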

How the data were processed

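Heart RNA of pooled mice was measured on 81 Affymetrix arrays. For each probe set the authors deposited a score, made with Affymetrix Expression Console per the submitters' processing notes; no further step is stated. Every array has mean 8 and SD 2 over 41345 probe sets, as read from the values, so changes common to most genes are removed. Of the probe sets 23521 had 1 gene symbol in the platform's table, 1814 several and 16010 were not listed, and only the first were named. Each of 22180 genes was represented by its brightest probe set on average, and Ucp1 and Cidea have 1 each. No filter on level was applied.

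Arrays were ranked by Ucp1 within diet and compared with limma 3.58.1 in R 4.3.3 (lmFit, eBayes, diet as a term, Benjamini-Hochberg), with Ucp1 left out of the test. Fits were checked on simulated data in which each gene was drawn independently, so variation shared between genes is not covered. There 16 of 21979 unshifted genes were called, with 94 of 100 shifted by 0.5 units and 100 of 100 shifted by 1. Replicates are strains, so p values cover the spread between pools, whose number limits the precision. A strain's 2 arrays are paired by the strain label, and strain as a random block (consensus correlation 0.175 in 7 strains) is an alternative. The pools and gene lists were chosen with earlier results of these data known. Named genes are the called genes with the same direction on both diets, members of the brown, general and white adipocyte lists, up to 4 members with the smallest p of other lists, and the 15 genes most like Ucp1. No batch is given in the labels. Alternatives covered group size, ranking gene, scaling, probe set, variance model, strains and an atrial covariate. Sequences are from RefSeq promoter windows.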

Additional observations from a re-analysis of the deposited data

Results flagged for a closer look

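For the 16 genes made up of Ucp1 and the 15 most like it, each of the 4 groups of 8 pools was checked for a pool far from the others. Of 64 checks in all 2 were met, while chance alone gives about 1 in 20 of independent checks. The genes and the groups were both chosen by Ucp1 in these same arrays, so that rate does not strictly apply. Plin1 in the BXD90 chow pool was 9.964, far above the next of the Ucp1-high chow pools at 9.076, and that pool also had the highest Ucp1 of all arrays. Pck1 in the BXD62 chow pool was 10.466, far above the next of the Ucp1-low chow pools at 9.059, and without that pool Pck1 passed (limma adjusted p = 0.0124). The same pool was the highest of the Ucp1-low pools for 4 liver markers, among them Cyp2e1 at 12.87. No difference between the diets in the Ucp1-high minus Ucp1-low contrast passed.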

How the results depend on the processing

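The count of 3 genes, all higher, was kept with the same genes under strain as a random block (replicate block, 3 genes), quantile normalization, median centring, array weights and the probe set with the largest variance. It was 2 with trended robust variances and without the parent strains, in both of which Cidec did not pass. It moved to 5 (3 higher, 2 lower) with the 5 highest and lowest pools per diet, to 13 (12 higher, 1 lower) with 12, to 99 with Ucp1 continuous over 81 pools and to 8 with the atrial mean added there. It was 0 among genes above the median level, where none of the 3 lies, 0 when ranked by Cidea, 0 with the atrial mean as a covariate, 0 without the 6 Ucp1-low pools of low atrial mean and 0 with the atrial mean in the 49 pools in neither group. The cause of these changes was not tested. The fits with the atrial mean and Ucp1 as a continuous term, those on 49 pools and those leaving out each pool or the 6 pools of low atrial mean were added after seeing the data. Leaving out each pool gave 3 to 7 calls, with all 3 genes called each time, and 7 was reached without BXD87 on chow. The differences of the 3 genes kept their sign under all 16 of these alternatives that tested them. The counts of 0 within each diet, in the interaction (also with the strain block) and in strains ranked on the other diet stayed at 0 with quantile normalization, the count of relations in 49 pools stayed at 3 by r, while by rho Msln and Nppa no longer passed (adjusted p = 0.0534 each), and r between the diets by strain was 0.154 there. The number of pools, 8 per diet and group, limits what can be seen within a diet.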
